A study of Mus musculus with 29 samples.

Results

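The 6 genes described here, Dera, BC049715, Gm5855, Gm5415, Gm16701 and Strip2, came from the 48709 genes counted in the treated libraries and were chosen by their CPM (counts per 1000000 counts of a library, after scaling): the 4 libraries of dcKO cortex given a Wnt inhibitor did not overlap the 4 of dcKO cortex given vehicle. That contrast is therefore a description of the choice and carries no test here. All samples were mouse embryonic cortex at E17.5 of strain C57BL/6J. The treated experiment held 3 groups of 4 libraries: wild type with vehicle (WT vehicle), BAF dcKO_hGFAP-Cre with vehicle (dcKO vehicle) and BAF dcKO_hGFAP-Cre with Wnt inhibitor (dcKO Wnt inhibitor). In dcKO embryos floxed Smarcc1 (BAF155) and Smarcc2 (BAF170), core subunits of the BAF chromatin remodelling complex, are deleted by Cre under the human GFAP promoter, which acts in late cortical progenitors and leaves other cells undeleted. The inhibitor was ICG-001, given to the pregnant dam by daily injection. No wild-type group with inhibitor was analysed here, and the labels do not name litters, so an effect of the inhibitor and a difference between litters cannot be told apart. A second experiment without treatment held 4 libraries labelled C and 3 labelled M, and H3K27me3 ChIP-seq held 4 labelled C and 4 labelled K. The labels carry the same genotype, dcKO, for both letters of each experiment and do not define the letters. The paper describes both experiments as comparisons of dcKO with control pallium. C is therefore read here as control, and M and K as dcKO.

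Wnt ligands stabilise beta-catenin, which joins TCF/LEF factors at target genes, and ICG-001 blocks the partnership of beta-catenin with the coactivator CBP. In the embryonic cortex this pathway keeps progenitors dividing and patterns the medial wall from which the hippocampus forms. Dera encodes deoxyribose phosphate aldolase, which breaks down the sugar of deoxynucleosides. Strip2 encodes a subunit of the STRIPAK complex, which ties the phosphatase PP2A to kinases. Gm5855 is a processed pseudogene, a retrocopied messenger RNA, and Gm16701 is annotated as a long noncoding RNA. BC049715 and Gm5415 are predicted genes with no function given here.

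Dera and BC049715 lie on the same chromosome (mm10, GENCODE M21). Dera spans chr6:137754546-137857340 on the plus strand, and BC049715 spans chr6:136827626-136840662, its start 0.927 Mb from that of Dera. Strip2 is also on chromosome 6, at chr6:29917012-29959681, but its start is 107.838 Mb away. Gm5855 is at chr3:130929366-130930670, Gm5415 at chr1:32543686-32547294 and Gm16701 at chr1:166974023-166999728. A second gene identifier also named Gm16701, at chr1:166998295-167000841, overlaps the first and is given separately.

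Gm5855 is shown beside Eno1, the glycolytic enzyme enolase from which its sequence derives, because a read from one can be placed on the other. Over its whole length Gm5855 was 96.3% identical to an Eno1 transcript, 96.5% to Eno1b and 96.5% to Gm4735. The 200-base stretch with most differences, transcript positions 182 to 381 of Gm5855 and 580 to 779 of Eno1 in GENCODE M21, held 11 differing bases, which are in capitals.
Gm5855: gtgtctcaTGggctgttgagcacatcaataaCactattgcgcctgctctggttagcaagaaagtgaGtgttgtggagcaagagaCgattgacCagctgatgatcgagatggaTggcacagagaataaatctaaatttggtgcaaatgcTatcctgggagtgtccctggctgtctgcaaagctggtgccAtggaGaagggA
Eno1: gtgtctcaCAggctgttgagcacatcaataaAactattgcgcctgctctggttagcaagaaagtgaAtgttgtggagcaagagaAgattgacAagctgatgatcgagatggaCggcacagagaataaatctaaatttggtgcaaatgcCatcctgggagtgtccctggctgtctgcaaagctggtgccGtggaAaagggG
Between these capitals the sequences are the same, so only reads that cover one can separate the 2 genes. Gm5415 also has relatives: 16 other genes aligned to it over at least 200 bases at 90% identity or more, the closest being Gm9839 with 98.5% over 1437 bases. BC049715 transcripts overlap Smco3 on the opposite strand, over up to 1964 bases, and the start of Wbp11. The library kit does not mark strand, so reads from these partners cannot be told apart. Dera, Strip2 and Gm16701 had no such match.

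RefSeq starts (GRCm38.p6) were found for 4 of the 6 genes, BC049715, Gm5415, Gm16701 and Strip2. A start region is given here as 250 bases before and 50 after the gene start, 5′ to 3′, with CG dinucleotides in capitals because the 2 genes with H3K27me3 peaks in several libraries differ in them. That of Strip2 (chr6:29916763-29917062, plus strand) held 22 CG and that of BC049715 (chr6:136828593-136828892, plus strand) held 4, against a median of 7 over 32851 RefSeq start regions.
Strip2: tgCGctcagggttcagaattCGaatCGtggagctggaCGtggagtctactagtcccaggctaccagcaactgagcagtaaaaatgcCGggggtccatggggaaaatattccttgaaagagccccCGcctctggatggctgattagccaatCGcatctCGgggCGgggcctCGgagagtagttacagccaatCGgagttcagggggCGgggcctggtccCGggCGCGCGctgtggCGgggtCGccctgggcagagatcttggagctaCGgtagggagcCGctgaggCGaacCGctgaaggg
BC049715: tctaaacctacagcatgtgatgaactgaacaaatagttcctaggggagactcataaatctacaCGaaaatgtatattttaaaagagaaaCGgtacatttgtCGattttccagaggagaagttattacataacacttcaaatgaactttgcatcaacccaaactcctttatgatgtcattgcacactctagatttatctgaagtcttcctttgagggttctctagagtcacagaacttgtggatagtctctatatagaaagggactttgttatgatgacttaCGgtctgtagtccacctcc
The start regions of Gm5415 and Gm16701 held 3 and 11 CG. The TCF/LEF core CTTTGAT, read on both strands (ATCAAAG on the other), was in none of the 4 windows and in 3.73% of all start regions.

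Several libraries stood apart or went against their labels. Total counts ran from 12514443 to 26600594 in the treated and from 11946658 to 28391046 in the untreated libraries. Smarcc1 lay between 245 and 299 CPM in WT vehicle and at 136, 242, 133 and 138 in dcKO vehicle libraries 1 to 4. It was 214, 252, 140 and 173 CPM in dcKO Wnt inhibitor libraries 1 to 4, and 245, 128 and 135 in M libraries 2 to 4. The libraries labelled dcKO vehicle 2, dcKO Wnt inhibitor 1 and 2 and M 2 thus held Smarcc1 close to the wild-type level, and Smarcc2 behaved likewise. Ttr, the transthyretin gene that defines choroid plexus, was 803, 147, 448 and 4.03 CPM in the 4 inhibitor libraries and between 3.87 and 5.80 in dcKO vehicle. It also varied in wild type, at 3.89, 11.4, 3.14 and 114 CPM in WT vehicle and up to 120 in C 4.

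The 2 RNA-seq experiments did not look independent. Across 15220 genes, the deviation of each untreated library from its group mean correlated with that of the vehicle library of the same number at r between 0.204 and 0.789 over 7 pairs (WT vehicle with C, dcKO vehicle with M). The 18 pairs of unlike number gave r between -0.673 and 0.217, and 7 of 7 vehicle libraries were most like the untreated library of their own number. These r values are a description across genes, which are not independent replicates. The labels do not say whether the vehicle and untreated libraries come from the same embryos, and the untreated values below are not taken as a second set of animals.

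Dera was lower in every inhibitor library than in every other treated library. It was 4.19, 4.40, 6.12 and 5.46 CPM in WT vehicle, 6.58, 6.19, 7.10 and 8.30 in dcKO vehicle and 2.39, 2.76, 3.64 and 3.27 in dcKO Wnt inhibitor. The 3 groups did not overlap: the inhibitor group was lowest and dcKO vehicle highest, with wild type between. Group means were 5.04 ± 0.907, 7.04 ± 0.916 and 3.02 ± 0.553 CPM (SD, n = 4 each). The log2 fold change from the edgeR fit was -1.22 (SE 0.18) for inhibitor against vehicle in dcKO, 0.49 (SE 0.17) for dcKO vehicle against WT vehicle and -0.73 (SE 0.18) for the inhibitor group against WT vehicle. The pairs of comparisons share libraries, so these are not separate observations.

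BC049715 was low everywhere and lowest with the inhibitor. It was 1.28, 1.33, 0.992 and 1.16 CPM in WT vehicle, 1.35, 1.07, 1.31 and 1.59 in dcKO vehicle and 0.239, 0.459, 0.0972 and 0.399 in dcKO Wnt inhibitor. The inhibitor values rest on 4, 8, 2 and 10 counts. Unlike Dera, its 2 vehicle groups overlapped. For BC049715 the log2 fold change was -2.12 (SE 0.33) for inhibitor against vehicle in dcKO and 0.15 (SE 0.28) for dcKO vehicle against WT vehicle. Its antisense partner Smco3 had 0 or 1 count in each treated library, and Wbp11, at its other end, had a log2 fold change of -0.04 (SE 0.08). In the untreated libraries, counted over another list of genes, Smco3 had 18 to 59 counts (1.51 to 2.23 CPM). The treated counts of Smco3 thus do not show that it was silent, and its part in the BC049715 values was not tested.

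Counts of Gm5855 were near 0 in some libraries and not in others. It was 2.39, 2.36, 1.96 and 2.56 CPM in dcKO vehicle and 0, 0, 0.146 and 0.0797 in dcKO Wnt inhibitor, which rest on 0, 0, 3 and 2 counts. In WT vehicle it was 0.0511, 0.102, 1.41 and 0.0387 CPM, so WT vehicle library 3, with 17 counts, stood near the dcKO vehicle libraries and the others near the inhibitor libraries. The fitted log2 fold change of -5.09 (SE 0.88) for inhibitor against vehicle depends on the prior count of the fit. Without WT vehicle library 3 the log2 fold change of dcKO vehicle against WT vehicle went from 2.91 to 5.10.

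**Figure D1:**
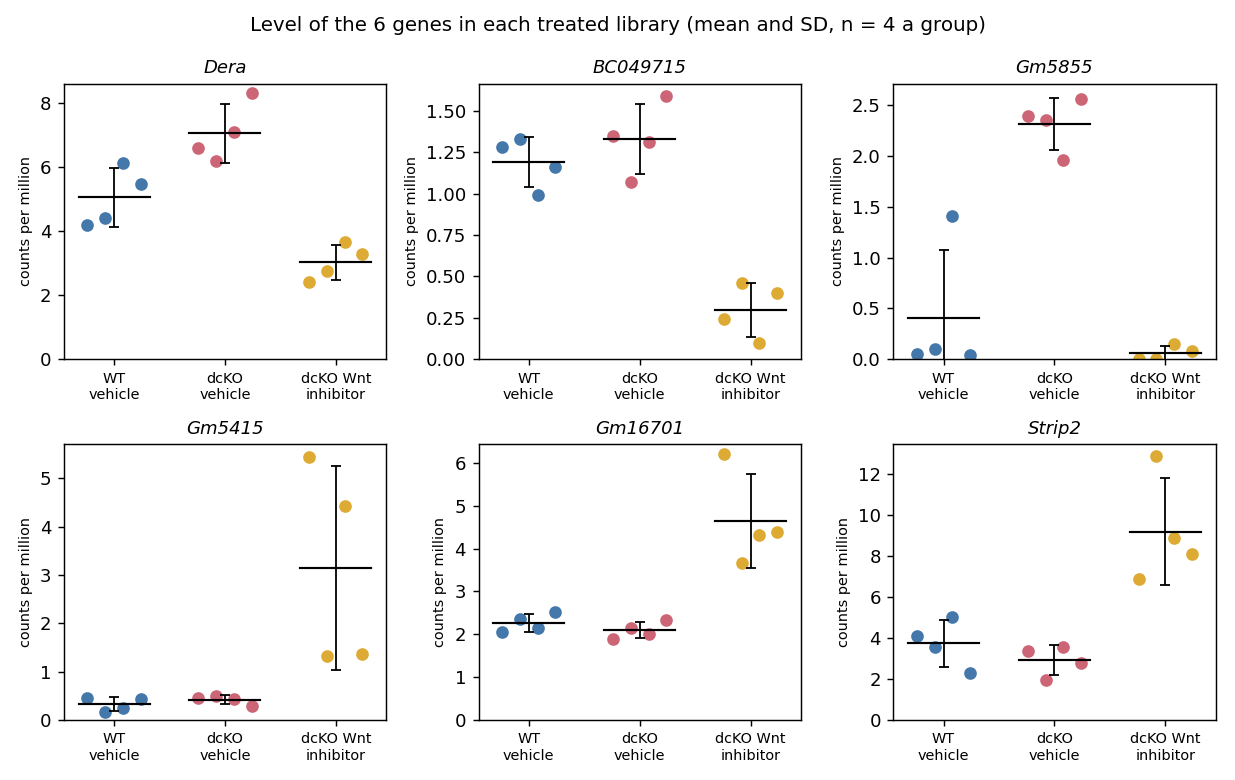
CPM of the 6 genes in each treated library, by group; points are libraries 1 to 4 from left to right, lines are means and bars the SD (n = 4), cut at 0. Dera, BC049715 and Gm5855 are lowest with the Wnt inhibitor, apart from Gm5855 in 3 of 4 WT vehicle libraries, and Gm5415, Gm16701 and Strip2 are highest there.

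The same split was seen in Eno1b, another enolase copy. Eno1b was 4.28, 5.12, 3.88 and 3.87 CPM in dcKO vehicle, 0.0598, 0.115, 0.146 and 0 in dcKO Wnt inhibitor and 0.205, 0, 3.80 and 0.0387 in WT vehicle. Over the 12 treated libraries, which include those that chose Gm5855, it was the gene most like Gm5855 (Pearson r = 0.957 of log2 CPM, a description). Gm5855 was 96.5% identical to Eno1b over its whole length. Reads of the 2 may be placed on each other, so they are not taken as separate observations. In the untreated libraries Eno1b was 4.11, 3.48 and 4.16 CPM in M 2 to 4 and 0, 0.0886, 4.41 and 0 in C 1 to 4, so library number 3 of the control group again stood with the M libraries. M 2 and dcKO vehicle 2, with Smarcc1 near the wild-type level, had Eno1b counts like the other M and dcKO vehicle libraries. No DNA was read here, so counts do not show which embryos carry which copy. Eno1 itself was 43.7 to 113 CPM in WT vehicle, 58.3 to 65.4 in dcKO vehicle and 76.7 to 110 in dcKO Wnt inhibitor. Its lowest library was WT vehicle 3. Gm4735 had 0 or 1 count in each treated library.

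**Figure D2:**
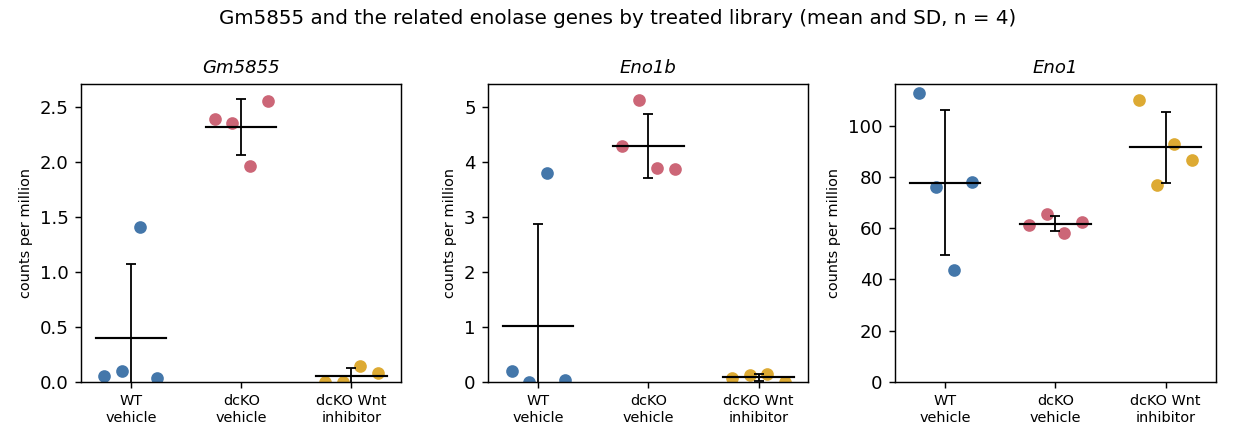
CPM of Gm5855, Eno1b and Eno1 in each treated library; points are libraries 1 to 4 from left to right, lines are means and bars the SD (n = 4), cut at 0. Gm5855 and Eno1b are near 0 in the same 7 libraries, and in WT vehicle only library 3 is well above 0 for both.

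Gm5415 was higher with the inhibitor, at 2 levels. It was 5.44, 1.32, 4.42 and 1.36 CPM in dcKO Wnt inhibitor, 0.451, 0.490, 0.436 and 0.280 in dcKO vehicle and 0.460, 0.154, 0.248 and 0.426 in WT vehicle. Inhibitor libraries 1 and 3 were the highest, and the vehicle groups overlapped. The log2 fold change was 2.89 (SE 0.49) for inhibitor against vehicle in dcKO and 0.31 (SE 0.61) for dcKO vehicle against WT vehicle. Libraries 1 and 3 also held the most Ttr, at 803 and 448 CPM, while library 4 held 4.03 CPM of Ttr and 1.36 of Gm5415. Library 2, with 147 CPM of Ttr, held 1.32 of Gm5415, close to library 4. WT vehicle library 4, with 114 CPM of Ttr, held 0.426 of Gm5415, within the range of the vehicle libraries. The part of choroid plexus in Gm5415 was not tested. Gm37999, the tested gene next to Gm5415 on the low-coordinate side, was 4.13, 1.03, 2.19 and 1.08 CPM in the inhibitor libraries and between 0.153 and 0.662 in the vehicle libraries. Its log2 fold change was 2.60 (SE 0.48). Khdrbs2, which overlaps Gm5415, had a log2 fold change of 0.05 (SE 0.19). Gm9839, the closest relative by sequence, lies nearby at chr1:32519563-32520999. It had 20, 6, 16 and 8 counts in inhibitor libraries 1 to 4, 1, 1, 2 and 0 in dcKO vehicle and 5, 2, 0 and 4 in WT vehicle. Whether Gm5415 and Gm9839 share reads was not tested.

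Gm16701 was 6.22, 3.67, 4.32 and 4.38 CPM in dcKO Wnt inhibitor, 1.89, 2.14, 2.0 and 2.33 in dcKO vehicle and 2.05, 2.35, 2.15 and 2.52 in WT vehicle. Every inhibitor library was above every vehicle library, and the vehicle groups overlapped. Gm16701 had a log2 fold change of 1.15 (SE 0.18) for inhibitor against vehicle in dcKO. The overlapping second identifier was 12.3, 6.72, 8.94 and 8.57 CPM in the inhibitor libraries and 6.36, 6.99, 5.93 and 6.85 in dcKO vehicle, and there the groups overlapped. Its log2 fold change was 0.48 (SE 0.16). Fam78b, the nearest tested gene on the other side, had a log2 fold change of -0.08 (SE 0.08).

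Strip2 was 6.88, 12.9, 8.89 and 8.09 CPM in dcKO Wnt inhibitor, 3.38, 1.96, 3.57 and 2.75 in dcKO vehicle and 4.09, 3.53, 5.04 and 2.29 in WT vehicle. The inhibitor libraries were again all above the others. Strip2 had a log2 fold change of 1.65 (SE 0.27) for inhibitor against vehicle in dcKO and -0.33 (SE 0.27) for dcKO vehicle against WT vehicle. The gene most like Strip2 over the 12 treated libraries was Ikzf1 (r = 0.930), a zinc finger transcription factor gene, at 13.6, 18.7, 19.1 and 14.2 CPM in the inhibitor libraries and between 0.802 and 5.88 in the vehicle libraries. Those most like Dera, BC049715, Gm5415 and Gm16701 were Itpr1 (r = 0.936), Efcab5 (0.967), Slirp (0.961) and Msantd2 (0.949). The 12 libraries include those that chose the members, so these r values in part restate that choice and carry no test.

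In the inhibitor contrast the 6 genes are without overlap by choice, beside 8.51% of the 16372 genes tested. By edgeR's adjusted p under 0.05 there were 9 genes called in that contrast (0.055% of those tested). Dera, BC049715, Gm16701 and Strip2 are among them, which uses the values that chose them, and nothing is read from it. The called genes that are not members were Sfrp5, which encodes a secreted Wnt antagonist, Sox8, Foxp1, Syt6 and Aebp1, each higher with the inhibitor. Between dcKO vehicle and WT vehicle, 2 of the 6 (Dera and Gm5855) did not overlap, beside 5.66% of genes. Between the inhibitor group and WT vehicle 5 of 6 did not overlap, beside 7.49%, the exception being Gm5855. Each of these comparisons shares 4 libraries with the contrast that chose the members, so nothing about the members is read from the counts. In bulk tissue, fewer cells that express a gene and less RNA per cell cannot be told apart.

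The file names place the libraries on 3 lanes. On the first, Dera was 6.58 and 6.19 CPM in dcKO vehicle and 2.39 in the inhibitor library; on the second it was 7.10 and 8.30 against 2.76 and 3.64. The third lane held inhibitor library 4 alone. With lane in the fit the log2 fold change of Dera was -1.33 (SE 0.16), and 0 genes were called by edgeR (3343 had an unadjusted p under 0.05), against 9 without the lane term and 339 by DESeq2 without it.

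Leaving out the 3 treated libraries labelled dcKO in which Smarcc1 exceeded 200 CPM left dcKO vehicle 1, 3 and 4 and inhibitor 3 and 4. The log2 fold change was then -1.08 for Dera, -2.42 for BC049715, -4.32 for Gm5855, 2.85 for Gm5415, 1.07 for Gm16701 and 1.39 for Strip2. In inhibitor library 4, where the 6 choroid plexus markers summed to 6.26 CPM against 5.52 to 11.5 in dcKO vehicle, Dera was 3.27 and Strip2 8.09 CPM. In the other inhibitor libraries the markers summed to 839, 160 and 478 CPM, and in WT vehicle to between 6.45 and 127. Their part in the members' values in those libraries was not tested.

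Dera and BC049715 were read beside the other genes of their stretch of chromosome 6. Within 5 Mb of Dera 50 other genes were tested, of which 22 had a higher and 28 a lower fitted level with the inhibitor, with a median log2 fold change of -0.09 against 0.01 over all genes. At an unadjusted p under 0.05 and without overlap there were 13, or 26% of them, beside 6.47% of all genes tested, and 0 passed the adjusted threshold. By unadjusted p under 0.05 alone there were 16 of 50, or 32%, beside 15.8% of all genes. Of the 13, 7 were lower and 6 higher with the inhibitor. The same share was 10.5% over chromosome 6 and between 3.97% and 8.99% on each other chromosome given (the other autosomes and X). Neighbouring genes are not independent of each other, and no test was made of this share.

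For inhibitor against vehicle in dcKO, the genes next to Dera had groups that overlapped. Strap, 2614 bases away on the low-coordinate side, had a log2 fold change of 0.09 (SE 0.14), Eps8 of -0.19 (SE 0.13), Mgst1 of 0.35 (SE 0.23) and Lmo3 of -0.27 (SE 0.18). Strap was 145, 167, 164 and 175 CPM in dcKO vehicle and 142, 167, 212 and 172 in the inhibitor libraries, and these overlapped. Of the 5 tested genes between BC049715 and Dera (Arhgdib, Rerg, Ptpro, Eps8 and Strap) 0 were without overlap, and only Ptpro, a receptor phosphatase gene, had an unadjusted p under 0.05. Against WT vehicle the picture differed for Eps8, which encodes a signalling adaptor that binds actin. Eps8 was between 21.5 and 27.4 CPM in WT vehicle and between 15.1 and 19.0 in dcKO vehicle, and its mean was 14.9 ± 2.11 CPM (SD, n = 4) in dcKO Wnt inhibitor. WT vehicle was above both dcKO groups without overlap, with a log2 fold change of -0.50 (SE 0.13) for dcKO vehicle and -0.69 (SE 0.13) for the inhibitor group. Ptpro was also without overlap between the inhibitor group and WT vehicle, at -0.26 (SE 0.09).

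On the low-coordinate side of BC049715 lay 23 of the 50 tested genes. Of these, 6 were without overlap between inhibitor and vehicle in dcKO, beside 8.51% of all genes. At an unadjusted p under 0.05 there were 7, beside 15.8% of all genes, and the median log2 fold change was -0.07. Plbd1, a phospholipase B domain gene, was 0.586, 0.846, 1.05 and 0.466 CPM in dcKO vehicle and 0.419, 0.115, 0.0972 and 0.279 in the inhibitor libraries, with no overlap and a log2 fold change of -1.68 (SE 0.43). H2afj, a histone H2A variant gene 17552 bases from BC049715, was 18.4, 18.8, 18.3 and 20.3 CPM in dcKO vehicle and 29.2, 25.2, 26.1 and 28 in the inhibitor libraries. Its log2 fold change was 0.52 (SE 0.13), in the opposite direction to its neighbour BC049715. Atf7ip had -0.35 (SE 0.10) and Lockd 1.0 (SE 0.22). The other neighbours without overlap lay on the high-coordinate side of Dera, with starts from 2.67 Mb (Plekha5) to 5.067 Mb (St8sia1) away. Plekha5, Slco1a4, Spx and Ldhb were higher with the inhibitor, and Gm20400, Pyroxd1 and St8sia1 were lower. The neighbours that did not overlap in this contrast thus lay on both sides of 0. Whether they follow the inhibitor or a difference in genetic background between litters cannot be told apart in this design.

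**Figure D3:**
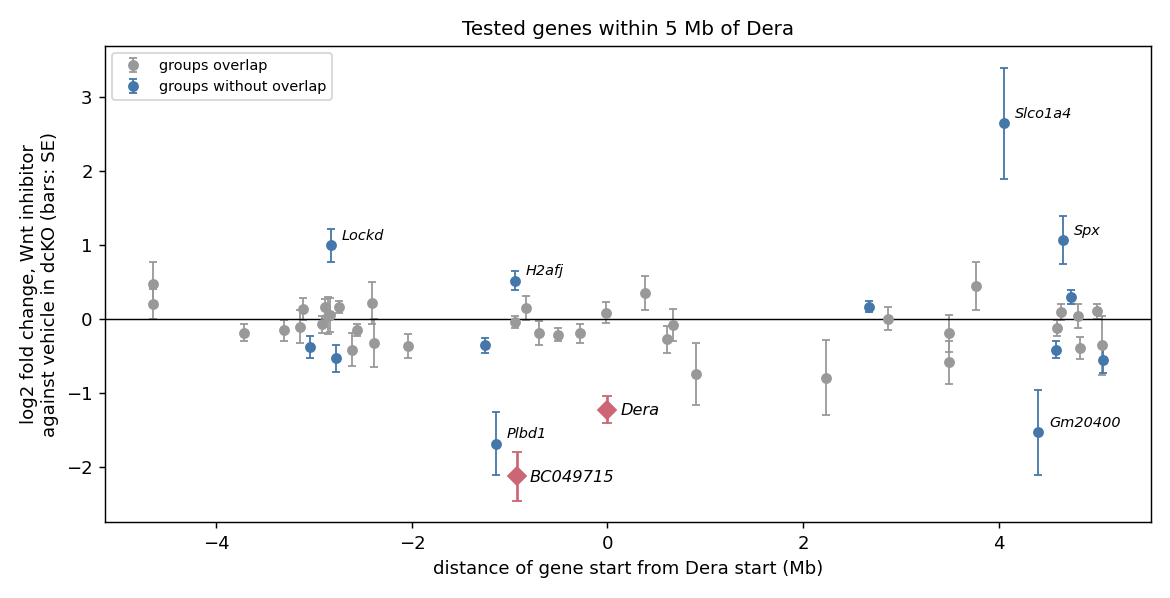
Log2 fold change of Wnt inhibitor against vehicle in dcKO (bars: SE) for 50 tested genes and for Dera and BC049715 (diamonds), by distance of the gene start from that of Dera in Mb. The genes next to Dera sit near 0, while Plbd1 at -1.68 and H2afj at 0.52 lie beside BC049715.

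The surroundings of the other genes held fewer such neighbours. Within 5 Mb of Strip2, 6 of 59 other tested genes (10.2%) had an unadjusted p under 0.05 without overlap, beside 6.47% of all genes tested. It was 5 of 46 (10.9%) around Gm5415, 4 of 86 (4.65%) around Gm16701 and 2 of 53 (3.77%) around Gm5855. The windows of Strip2 and Gm5415 were thus also above the share of all genes, and those of Gm16701 and Gm5855 below it. Around BC049715, whose window overlaps that of Dera, it was 8 of 39 (20.5%). The differences between windows were not tested.

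Without treatment, Dera was 5.04, 4.74, 6.26 and 4.43 CPM in C and 4.70, 7.61 and 8.20 in M libraries 2 to 4. M 2 lay within the range of C and the other M libraries above it. The log2 fold change was 0.44 (SE 0.20), with an adjusted p of 0.328 by edgeR's quasi-likelihood test over 15770 genes. Without M 2, the library with Smarcc1 at 245 CPM, the log2 fold change was 0.62 (SE 0.16) with an adjusted p of 0.0286 by edgeR. In that fit 1994 of 16024 genes were called, against 1 of 15770 with M 2, so the call is not particular to Dera. Over all alternatives the adjusted p of Dera ran from 0.0286 to 0.794. The dcKO vehicle libraries helped choose Dera and are not taken as separate animals, so their level above WT vehicle adds nothing to this comparison.

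The other members had adjusted p values of 0.746 or more by edgeR, apart from the second Gm16701 identifier. BC049715 was 0.840 to 1.42 CPM in C and 1.01 to 1.06 in M, with a log2 fold change of -0.11 (SE 0.25). Strip2 was 2.26 to 5.50 CPM in C and 1.85 to 4.70 in M, with a log2 fold change of -0.29 (SE 0.36). Gm5415 was 0.355 to 0.882 CPM in C and 0.492 to 0.756 in M. The second Gm16701 identifier was 10.4 to 12.6 CPM in C and 9.41 to 10.4 in M, with a log2 fold change of -0.25 (SE 0.11) and an adjusted p of 0.291. Of the 5 identifiers tested 0 were called by edgeR and 0 by DESeq2, 1 had an unadjusted p under 0.05 in edgeR (16% of all genes), and 0.00634% of genes (1) were called. Gm5855 and the first Gm16701 identifier were not analysed here in these libraries.

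**Figure D4:**
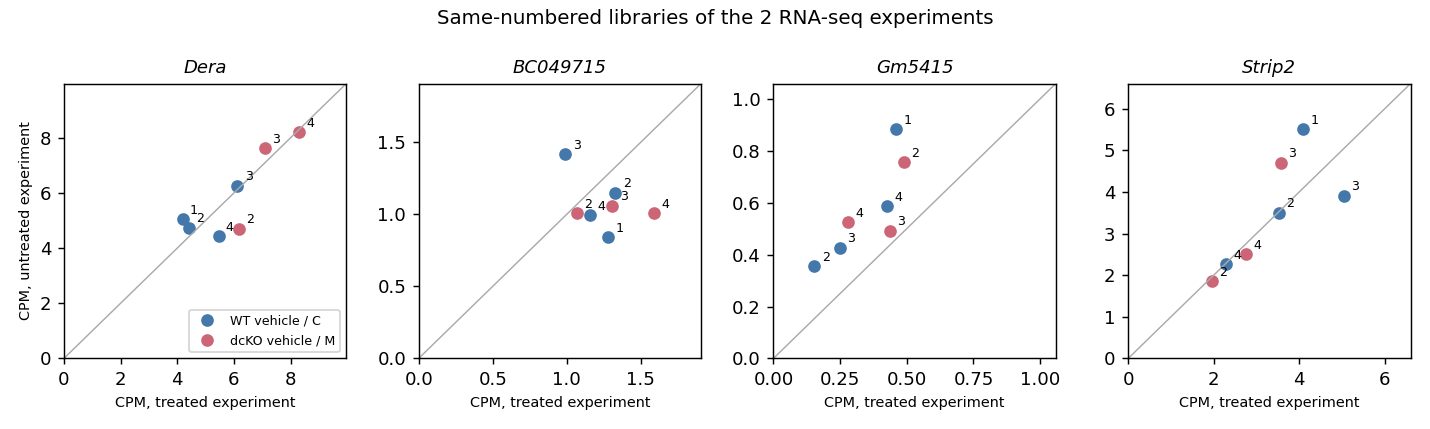
CPM of Dera, BC049715, Gm5415 and Strip2 in the untreated library (vertical) against the vehicle library of the same number (horizontal), with numbers at the points and a line of equality. For Dera, M 2 is at 4.70 and dcKO vehicle 2 at 6.19 CPM, and M 3 and 4 at 7.61 and 8.20 beside dcKO vehicle 3 and 4 at 7.10 and 8.30.

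Genes of the same pathways were read beside Dera and Strip2. Over all genes tested in the inhibitor contrast, 15.8% had an unadjusted p under 0.05 and 8.51% were without overlap. With lists this small, counts near those shares carry little. Of 8 tested genes of deoxyribonucleoside breakdown other than Dera, which was chosen on this contrast, 0 were called by edgeR or DESeq2 and 1 had an unadjusted p under 0.05. Dctd (deoxycytidylate deaminase) was the 1 gene of them without overlap, with a log2 fold change of -0.55 (SE 0.24). Their median was -0.14 against 0.01 over all genes. Pgm2 and Samhd1 had -0.13 (SE 0.13) and -0.16 (SE 0.09). Of 11 genes of the pentose phosphate pathway, into which such sugars feed, 0 were called by edgeR or DESeq2, 0 had an unadjusted p under 0.05, and the median was -0.01. G6pdx and Pgd did not overlap, at -0.17 (SE 0.08) and 0.12 (SE 0.10).

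Of 18 tested STRIPAK genes other than Strip2, which was chosen on this contrast, 0 were called by edgeR and 1 (Cttnbp2) by DESeq2, 2 had an unadjusted p under 0.05 and the median was 0.01. The striatin gene Strn had a log2 fold change of -0.20 (SE 0.12), Cttnbp2 -0.42 (SE 0.12) and the kinase gene Stk26 1.09 (SE 0.36). Of 16 Wnt/beta-catenin targets 0 were called by edgeR or DESeq2, 2 had an unadjusted p under 0.05 and the median was 0.00. Axin2, a feedback inhibitor of the pathway, had -0.35 (SE 0.16), Ccnd1 -0.39 (SE 0.16), Lef1 -0.06 (SE 0.18) and Birc5 0.42 (SE 0.13). Cttnbp2, of the STRIPAK genes other than Strip2, and Birc5, of the targets, were the only ones without overlap. The shares of all genes were 15.8% for an unadjusted p under 0.05 and 8.51% for lack of overlap.

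Marker lists of other cell types held 0 called genes by edgeR in the inhibitor contrast, and 4 choroid plexus genes by DESeq2. The 6 choroid plexus genes had a median log2 fold change of 3.51, with 4 at an unadjusted p under 0.05. The medians were 0.21 for dorsal cortex, 0.60 for meninges, 0.03 for endothelium, 0.11 for red blood cells, 0.30 for ventral telencephalon and interneurons and -0.12 for microglia. Each of these had 0 or 1 gene at an unadjusted p under 0.05, beside 15.8% of all genes. Hbb-bs of the red blood cell list and Dlx6 of the ventral list were without overlap, beside 8.51% of all genes. Their log2 fold changes were 0.48 (SE 0.15) and 1.0 (SE 0.31). Of the spermatid list only Prm1 was tested. It was 28.9, 2.49, 28.1 and 30.8 CPM in dcKO vehicle and 2.87, 2.87, 12.1 and 8.21 in the inhibitor libraries, with at most 0.331 in WT vehicle. In M 2 to 4 it was 2.6, 29.2 and 26.2 CPM, and in C at most 0.177. Within each of the dcKO vehicle, inhibitor and M groups Prm1 was lowest in the libraries with Smarcc1 near the wild-type level. The source of the Prm1 counts was not tested.

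H3K27me3, the mark laid down by Polycomb, was read as the peaks called in each library within 2000 bases of a member. A region was tested where at least 2 libraries had a peak, and a library without one was set to 1. At the Strip2 start the region chr6:29915667-29919285, which contains the start region printed above, had a peak in 3 of 4 C and 3 of 4 K libraries. Its fold enrichment was 3.60, 3.3 and 3.45 in C 1, 2 and 4 and 5.79, 4.08 and 5.34 in K 1, 3 and 4. The log2 difference was 0.41 (SE 0.90) in limma, with an adjusted p of 1. Within the BC049715 locus, chr6:136830363-136837164, peaks were present in 2 C and 3 K libraries, at 3.69 to 3.70 and 3.72 to 4.15, with a log2 difference of 0.56 (SE 0.90).

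Peaks at the other members were rarer. Dera had single-library peaks only: at its start in K 4 (3.63), in an intron in K 1 (3.77) and past its end in C 1 (3.84). Gm16701 had 2 regions with 1 C and 1 K peak each, and Gm5855 and Gm5415 had none. Of the regions tested at members 0 had an unadjusted p under 0.05, beside 49 of 22222 regions overall (0.221%), of which 0 passed the adjusted threshold. The libraries differed widely, with 6674 to 46000 peaks each, and the part of depth in a missing peak was not tested.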

How the data were processed

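RNA-seq was deposited as counts per gene, 1 file a library, which per the labels and the study's methods the authors made from TruSeq v2 libraries, not marking strand, aligned to mm10 (STAR, featureCounts). H3K27me3 peaks were deposited as MACS2 broad peaks called per library, with fold enrichment (a ratio over input), pileup signal and −log10 q-values per the file headers. The untreated files list 38355 genes and the treated files list 48709, so levels are compared within a table, and the untreated files end in HTSeq-style summary rows; rows naming no gene held 0 counts. Libraries were grouped by the labels; where the labels do not say that libraries are separate embryos, p-values measure only the spread between these libraries.

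Counts were fitted with edgeR 4.0.16 (quasi-likelihood, robust, TMM scaling, filterByExpr, Benjamini-Hochberg over all genes; R 4.3.3), with all 3 treated groups in 1 fit. CPM used TMM-scaled library sizes. DESeq2 1.42.0, other scaling, no filter, block terms and leaving out libraries were alternatives. Peaks were merged and log2 fold enrichment fitted with limma 3.58.1 (trend, robust). Copies were sought with blastn 2.17.0 on GENCODE M21. Scripts were tested on simulated data. Depth sets the precision: at under 10 counts a value carries a wide counting error.

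The members, gene lists and tests were chosen with earlier results of these data known. Genes named were the members, Smarcc1 and Smarcc2, the 3 nearest tested genes each side, all between BC049715 and Dera, neighbours within 5 Mb of Dera at an unadjusted p under 0.05, the 3 genes most like each member (log2 CPM, prior count 2), up to 4 genes a list by smallest p, and up to 10 other called genes. Eno1, Eno1b, Gm4735, Gm9839, Smco3, Prm1, Ttr, Pgm2, Samhd1, Strn, Axin2 and Lef1 were named after their values were seen. Of genes meeting these rules only those that matter to a result are printed. ChIP inputs were not analysed here.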

Additional observations from a re-analysis of the deposited data

Results flagged for a closer look

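Values were examined in 34 groups of 4 libraries, and 3 lay farther from the rest than Dixon's 95% limit allows, which chance gives in about 1 of 20 groups. Gm5855 was 1.41 CPM in WT vehicle library 3 and at most 0.102 in the other 3. In the library labelled dcKO vehicle 2, Smarcc1 was 242 CPM and Smarcc2 692 CPM, above the other dcKO vehicle libraries, whose Smarcc1 was 133 to 138 and Smarcc2 425 to 439. Eno1b was 3.80 CPM in the same WT vehicle library 3 and 4.41 in C 3. The causes were not tested.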

How the results depend on the processing

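Under the alternatives tried for inhibitor against vehicle in dcKO, the direction and lack of overlap of the 6 members are fixed by their choice and are no sign of stability. The count of genes called was 9 and moved with the fit: 20 with no filter on low counts, 339 with DESeq2, 0 with the lane block, 172 without the 3 libraries labelled dcKO with Smarcc1 above 200 CPM (chosen after seeing the data), and 0 to 420 when 1 library was left out. It was 420 without inhibitor library 2, 180 without dcKO vehicle library 2, 3 without inhibitor library 1, 1 without inhibitor library 3, and 0 without inhibitor library 4 or dcKO vehicle library 1, 3 or 4. Members called, a number that restates their choice, were 4 in the fit described and ran from 0 to 6: 6 with DESeq2 and without dcKO vehicle library 2 or inhibitor library 2, 5 with no filter and without the 3 libraries above, 3 with DESeq2 size factors, 2 with the replicate block, 1 in the fit of the 2 groups alone and 0 with the lane block or without dcKO vehicle library 1, 3 or 4 or inhibitor library 1, 3 or 4. For dcKO vehicle against WT vehicle, members without overlap went from 2 to 1 with DESeq2 size factors. The neighbours of Dera counted 13 of 50 (26%), beside 6.47% of all genes. It was 3 of 14 (21.4%) in a 2 Mb and 20 of 106 (18.9%) in a 10 Mb window. With 1 library left out the count ran from 12 to 17.

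For M against C, 1 gene was called; 154 were with no filter, 555 with DESeq2, 0 with the replicate block, and 0 to 1994 with 1 library left out (1994 without M 2, 6 without C 3, 0 without any other). Members called were 0, and 1 (Dera) without M 2, which is the M library with Smarcc1 above 200 CPM. Left-out libraries moved the log2 fold change of Gm5415 between -0.15 and 0.31 and that of BC049715 between -0.22 and 0.05. Directions near 0 turned: Gm5415 from 0.01 to -0.14 without M 2, -0.15 without C 2 and -0.11 without C 3, and BC049715 from -0.11 to 0.05 without C 3. At the Strip2 start the H3K27me3 log2 difference was -0.04 without C 3 and 0.99 without K 2, the range over left-out libraries, and 1.74 with peaks at a q-value under 0.01, against 0.41; regions at unadjusted p under 0.05 stayed at 0 (0 to 0 with 1 library left out). The cause of these moves was not tested.

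Replicate numbers did not pair the samples throughout. Same-numbered libraries of the inhibitor and dcKO vehicle groups correlated at 0.08, -0.10, 0.12 and 0.20, and M with C at -0.07, -0.31 and -0.03. With WT vehicle 1, dcKO vehicle 1 correlated at 0.38 and inhibitor 1 at 0.40. The other same-numbered pairs with WT vehicle lay between -0.18 and 0.15. With the replicate block 7 genes were called for inhibitor against vehicle; members without overlap, 6, do not depend on the fit. Values of BC049715, Gm5855 and Gm5415 rest on few counts, and depth limits them most.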
